A study of Mus musculus with 11 samples.

Results

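The comparison described here sets cultured mouse macrophages of both cytokine-treated states, M1 and M2a, as 1 average, against untreated M0 macrophages. It is the average of the M1 mean (3 arrays) and the M2a mean (3 arrays) minus the M0 mean (5 arrays), and it uses all 11 of the 11 arrays of the series. All cells came from bone marrow of Rag1-/- C57BL/6 mice aged 7 weeks, which make no mature B or T lymphocytes, and every group carried that deletion. The marrow was kept in culture for 7 days. M0 cells were given no cytokine, M1 cells were given IFN-g, with LPS over the last 24 h, and M2a cells were given IL-4 and IL-13. The cells were then sorted for F4/80, a surface marker of macrophages in mice, and the total RNA of the F4/80+ cells was hybridized to Affymetrix mouse genome arrays. The labels number the replicates without saying whether they were separate mice or cultures, so the p-values rest on differences between arrays that may be only technical. The sex of the mice is not in the labels.

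As background, bone marrow holds progenitors that divide and mature along several myeloid lines. Developing neutrophils make their granule proteins in waves, primary granule proteases first and secondary and tertiary granule proteins later, and eosinophils, basophils and mast cells make granule proteins of their own. Macrophages growing from marrow divide at first and leave the cell cycle as they mature or are activated; both interferon-gamma and IL-4 act through JAK-STAT signalling, and arginine metabolism is a classical point where the M1 and M2 states part.

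Values are deposited log2 probe-set values, with 1 probe set per gene, so a difference of 1 is a 2-fold change. The gene at the middle of the scale lay at 5.96 in M0, with 4.49 at the lower quartile of genes. A gene is called here when its adjusted p in limma, over 18193 genes, was under 0.05. It is separated when, besides, all 6 cytokine arrays lay on one side of all 5 M0 arrays. In limma 4359 genes rose (24.0% of those tested) and 2967 fell (16.3%). The separated genes were 1720 higher (9.45%) and 1416 lower (7.78%). The counts of each list below are to be read beside these shares. The 2-fold changes leaned downward: 710 called genes were at least 2-fold higher on average and 860 at least 2-fold lower, and of the separated genes 193 were at least 2-fold higher in each state and 487 at least 2-fold lower in each. The median over all genes was 0.08. Both states use the same M0 arrays, so their 2 differences from M0 are given side by side and their likeness is not taken as a result. M1 minus M2a, a difference that uses no M0 mean, was called for 5341 genes (29.4%). Its test still shares its spread with the M0 arrays. The median SD over genes was 0.24 in M0, against 0.08 in M1 and 0.09 in M2a. A gene not called for M1 minus M2a is therefore not shown to be alike in M1 and M2a.

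Several facts about the arrays bear on every value. On every probe set M0 arrays 4 and 5 averaged to the same value as M0 arrays 1, 2 and 3, within 8.33e-05, so fewer than 5 of the M0 arrays are independent and the adjusted p-values may be too small. M0 arrays were less alike (correlations across genes of 0.956 to 0.995) than M1 arrays (0.997 to 0.998) or M2a arrays (0.996 to 0.998). M0 arrays 1 and 4 stood apart, with a spread of values (interquartile range) of 3.01 and 2.88 against 3.35 to 3.78 in the other 9. The control transcripts spiked in at hybridization read 10.61 to 11.70 in M0 and 9.64 to 9.96 in the cytokine arrays, and the poly-A spikes 8.47 to 9.48 against 5.27 to 6.11. The array controls and the treatment therefore cannot be told apart, and the part of either in a result was not tested. Sex chromosome genes also split the groups, as described below. Xist, an RNA of female cells, was high and the Y-linked Eif2s3y low in every M0 array. In the cytokine arrays Eif2s3y was high and Xist far lower, except that M2a array 3 was high for both. Without M0 arrays 1 and 4 and M2a array 3, an alternative added after the data were seen, 5038 genes rose and 3418 fell.

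**Figure D1:**
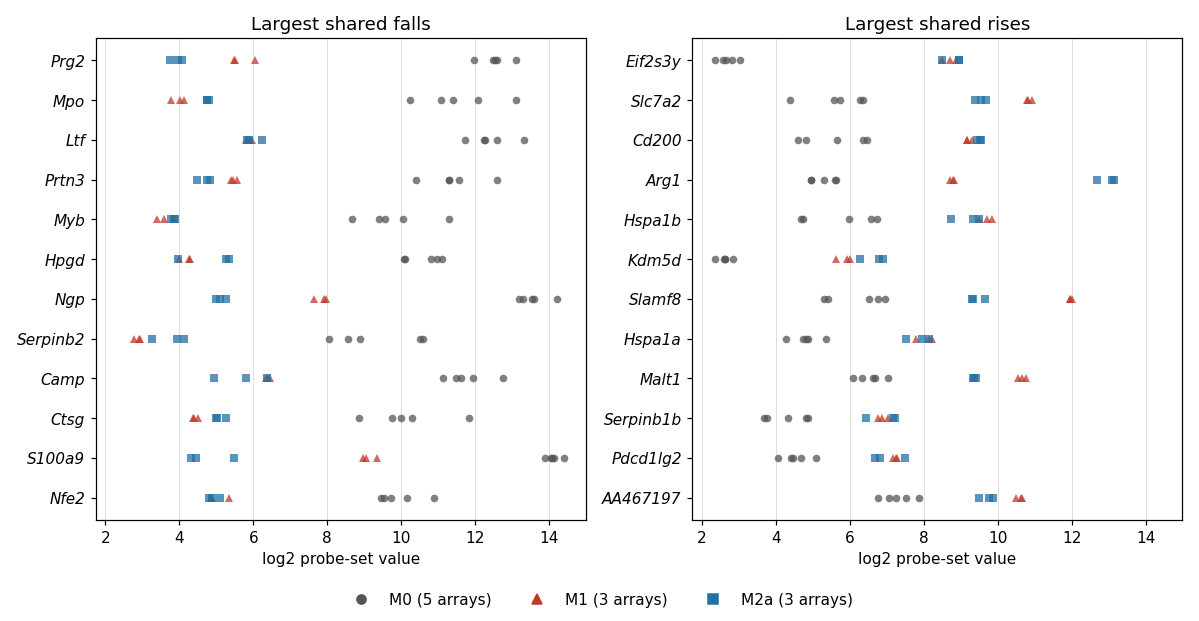
Log2 probe-set values in each array for the 12 largest shared falls and the 12 largest shared rises, ranked by the smaller of the M1 and M2a differences from M0. Circles are the 5 M0 arrays, triangles the 3 M1 arrays and squares the 3 M2a arrays. Every gene shown has all 6 cytokine arrays on one side of the 5 M0 arrays; Mpo spans 10.23 to 13.10 in M0 and lies at 4.79 or lower in the others.

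The largest shared falls were genes of granulocytes and their precursors. Of the 12 largest, Mpo, Prtn3 and Ctsg belong to the neutrophil primary granule list, and Ltf, Ngp, Camp and S100a9 to the secondary and tertiary granule list. Prg2, the eosinophil major basic protein, headed the 12. The others were Myb, a transcription factor of dividing progenitors, Nfe2, a factor of the megakaryocyte and erythroid lines, Hpgd, which breaks down prostaglandins, and Serpinb2, a protease inhibitor. The promoters of the genes with the largest shared falls in the granule lists are shown next, because those genes fell together. Each runs from 250 bases before the RefSeq transcription start to 30 after it (build GRCm38.p6), 5′ to 3′ on the gene's strand. Capitals mark matches on either strand to GAGGAA, the core of PU.1 sites, or to AACNG, the core of Myb sites.
Mpo: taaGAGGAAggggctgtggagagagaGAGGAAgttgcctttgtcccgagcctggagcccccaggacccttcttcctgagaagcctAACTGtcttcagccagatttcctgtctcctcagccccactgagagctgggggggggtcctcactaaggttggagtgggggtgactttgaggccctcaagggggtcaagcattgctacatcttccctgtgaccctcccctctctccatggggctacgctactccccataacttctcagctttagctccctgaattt
Prtn3: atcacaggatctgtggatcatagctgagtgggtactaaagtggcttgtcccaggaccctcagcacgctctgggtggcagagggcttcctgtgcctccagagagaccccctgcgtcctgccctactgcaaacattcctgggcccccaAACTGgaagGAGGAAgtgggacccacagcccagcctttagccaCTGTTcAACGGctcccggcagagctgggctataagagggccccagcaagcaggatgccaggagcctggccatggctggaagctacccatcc
Ltf: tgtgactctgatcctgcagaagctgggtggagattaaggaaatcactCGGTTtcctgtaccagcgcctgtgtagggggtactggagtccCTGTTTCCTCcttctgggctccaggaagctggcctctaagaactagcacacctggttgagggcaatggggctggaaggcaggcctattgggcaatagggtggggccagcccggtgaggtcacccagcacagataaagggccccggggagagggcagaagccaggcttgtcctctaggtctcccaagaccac
They lie at chr11:87793534-87793813 for Mpo, chr10:79879417-79879696 for Prtn3 and chr9:111019042-111019321 for Ltf, all on the plus strand. In the Mpo stretch GAGGAA begins at -247 and -224, in Prtn3 at -95, and in Ltf its reverse complement begins at -157. Of the 29 granule genes of both lists that have a window of 250 bases before to 50 after the start, 20 held GAGGAA (69%), against 27% of 14452 windows of all genes tested. AACNG was in 93.1% of the granule windows and 78.9% of all. These are matches of letters and not tests of binding.

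Primary granule genes fell together. Of the 12 measured, 8 fell and 7 of these were separated, 1 rose and 3 were not called; the list median was -2.72, with -3.08 in M1 and -2.90 in M2a. Mpo, myeloperoxidase, read 13.10, 11.40, 10.23, 12.07 and 11.08 in the 5 M0 arrays, 3.78, 4.12 and 4.01 in M1 and 4.75, 4.79 and 4.74 in M2a. Every M0 array was above 10 and every cytokine array under 5. On average the cytokine states differed from M0 by -7.21 ± 0.39 (SE) (limma, adjusted p = 1.43e-07). Prtn3, proteinase 3, fell by 6.36, Ctsg, cathepsin G, fell by 5.38, Ms4a3, a gene of granulocyte and monocyte progenitors, fell by 4.50 and Elane, neutrophil elastase, fell by 3.30. Elane read 10.55, 8.69, 7.64, 9.12 and 8.80 in the 5 M0 arrays, 5.52, 5.42 and 5.66 in M1 and 5.97, 5.77 and 5.64 in M2a, so its groups do not overlap, and M0 array 1 is again the highest. Srgn, serglycin, the proteoglycan that packs granules and is also made by macrophages, was the 1 member that rose, by 0.50. Hp, haptoglobin, was called lower at -1.41, but its differences from M0 were 1.79 in M1 and -4.61 in M2a.

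Of 22 secondary and tertiary granule genes, 21 fell and 15 were separated, with a median of -3.74. Ltf, lactoferrin, read 13.31, 11.72, 12.24, 12.59 and 12.27 in the 5 M0 arrays, 5.80, 5.92 and 5.95 in M1 and 6.23, 5.82 and 5.90 in M2a. Its differences were -6.53 in M1 and -6.44 in M2a, and M1 minus M2a was not called at -0.09. Camp, the cathelicidin peptide, fell by 5.74, and Cd177, a neutrophil surface protein, fell by 4.57. Other members fell in both states by unequal amounts. Ngp, neutrophilic granule protein, had differences of -5.73 in M1 and -8.44 in M2a. S100a9, one chain of calprotectin, read 14.39, 13.89, 14.06, 14.14 and 14.08 in the 5 M0 arrays, 9.06, 8.97 and 9.35 in M1 and 4.31, 4.45 and 5.48 in M2a, and its partner S100a8 14.08, 13.65, 13.78, 13.91 and 13.76 in the 5 M0 arrays, 12.28, 12.36 and 12.42 in M1 and 7.13, 7.11 and 7.53 in M2a. In M1 both chains stayed between M0 and M2a without overlap. M1 exceeded M2a by 4.38 for S100a9 (adjusted p = 1.39e-07, limma) and by 5.10 for S100a8 (adjusted p = 2.88e-10).

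For a few granule genes the average came from 1 state. Lcn2, lipocalin 2, an iron-binding antibacterial protein, was called at -4.11 but read 13.15, 11.73, 12.47, 12.68 and 12.22 in the 5 M0 arrays, 12.62, 12.65 and 12.68 in M1 and 4.23, 4.17 and 3.68 in M2a. The M1 arrays lay inside the M0 range, and only the M2a arrays were low. Mmp9, a matrix protease of tertiary granules, was -2.59 in M1 and -0.61 in M2a, Chil3 -5.22 in M1 and 0.67 in M2a, Anxa1 -5.36 in M1 and 1.26 in M2a and Fpr2, a formyl peptide receptor, 2.18 in M1 and -5.66 in M2a. The last 3 had opposite signs in the states, as had 816 called genes in all. Among the 22 members, M1 minus M2a was called for 14, beside 29.4% of all genes, with M1 above M2a in 9.

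**Figure D2:**
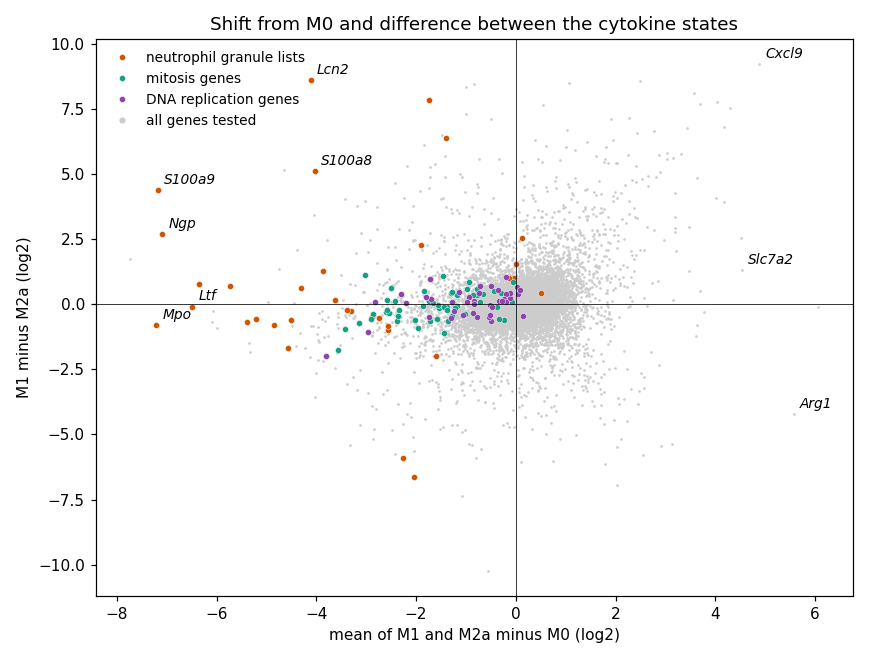
The mean of M1 and M2a minus M0 (x axis, log2) against M1 minus M2a (y axis, log2) for 18193 genes (grey), with neutrophil granule genes in orange, mitosis genes in green and DNA replication genes in purple. Mpo and Ltf lie far to the left near 0 on the y axis, at -0.79 and -0.09; Lcn2 lies at 8.62 on the y axis, since it fell in M2a alone.

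The granule lists moved with 1 array. The mean level of the primary granule list was 9.69 to 11.45 in M0, 7.95 to 7.97 in M1 and 7.25 to 7.39 in M2a, and M0 array 1 was the highest M0 array for 10 of its 12 members, for 17 of the 22 secondary and tertiary members and for 15 of the 19 eosinophil, basophil and mast cell members. Leaving it out, or M0 arrays 1 and 4 and M2a array 3 together, kept the falls of Mpo, Ltf, Prtn3, Ngp and Prg2 called. Over 26 alternatives the primary granule median ran from -2.94 to -0.90 and the secondary and tertiary median from -3.93 to -2.80; the values nearest 0 came with the hybridization controls in the fit, where Elane lost its call. In these bulk samples, fewer cells of a type and less of its RNA per cell cannot be told apart.

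Most genes of eosinophils, basophils and mast cells fell too. Of 19 measured, 15 fell, 14 of them separated, none rose and 4 were not called (median -2.40, -2.55 in M1 and -2.05 in M2a). Prg2 read 13.11, 12.53, 11.96, 12.48 and 12.59 in the 5 M0 arrays, 5.48, 6.04 and 5.49 in M1 and 4.07, 3.75 and 3.95 in M2a; the lowest M0 array was above the highest cytokine array by more than the spread within either. On average it differed by -7.74 ± 0.18 (SE) (limma, adjusted p = 2.61e-10). M1 minus M2a was called for 5 of the 19, near the 29.4% of all genes, with M2a the higher in 4. That test shares its spread with M0, where the median SD of these genes was 0.61, against 0.17 in M1 and 0.13 in M2a. The count therefore does not show that the 2 states were alike in the other members. Siglecf, a surface lectin of eosinophils, read 7.15 to 8.88 in M0 and 3.53 to 4.57 in the 6 cytokine arrays and fell by 3.95. Cpa3, the carboxypeptidase of mast cells and basophils, fell by 4.11, and Mcpt8, a basophil protease, fell by 3.84. Alox15, a lipoxygenase that serves as an M2a marker in other macrophages, also fell by 4.40, with 7.84 to 10.03 in M0, 3.31 to 3.78 in M1 and 4.79 to 5.37 in M2a. The mast cell tryptase Tpsb2 and protease Mcpt4 were not called, at 0.16 and 0.13.

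Progenitor and platelet genes fell more selectively. Of 22 progenitor genes, 14 fell (8 separated) and 1 rose, with a median of -0.55. Myb read 11.31, 9.41, 8.68, 10.04 and 9.55 in the 5 M0 arrays, 3.82, 3.39 and 3.57 in M1 and 3.89, 3.79 and 3.85 in M2a, a difference of -6.08, or -6.01 with another probe set. Gfi1, a repressor needed for neutrophil development, fell by 3.52, Cd34, a surface protein of progenitors, fell by 2.70, and Kit, the receptor for stem cell factor, fell by 1.81. Kit read 7.31, 5.55, 5.01, 5.54 and 6.38 in the 5 M0 arrays, 4.76, 4.69 and 4.64 in M1 and 3.51, 3.49 and 3.78 in M2a and was highest in M0 array 1; the call was lost with the hybridization controls in the fit. Hoxa7, Erg and Lmo2, factors of early progenitors, were not called (-0.08, -0.06 and -0.17). Flt3 was the member called higher, by 0.18, and lost its call in 16 of the 25 alternatives it was part of. The number of progenitor genes called lower was 7 with the hybridization controls in the fit.

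Of 17 erythroid and megakaryocyte genes, 8 fell (7 separated) and 2 rose. Over all genes 16.3% fell, 7.78% were separated lower and 24.0% rose. The highest average difference in the list was 1.35. The platelet chemokines Ppbp and Pf4 fell, with differences of -5.35 and -3.97, and Itga2b, the platelet integrin chain, fell by 1.90. Pf4, which macrophages also make, read 11.41 to 12.13 in M0, 7.33 to 7.41 in M1 and 8.002 to 8.54 in M2a, with no overlap. The erythroid genes Klf1, Epor, Car1 and Alas2 were not called, and Hba-a1, an alpha globin, was called higher by 0.25 at a level of 4.41 or lower in every array. The Hba-a1 call was lost in 6 of 25 alternatives, the replicate block and leaving out M1 array 2, M2a array 1 or M2a array 2 among them, and the Itga2b call with the hybridization controls in the fit. Among 17 monocyte genes, 12 fell and 5 of these were separated, beside 16.3% and 7.78% of all genes, and 2 rose, beside 24.0%. Over 26 alternatives the number called lower ran from 6 to 14. M1 minus M2a was called for 14, beside 29.4% of all genes. Plac8 had differences of -2.06 in M1 and -7.23 in M2a and F13a1, coagulation factor XIII A, of -1.48 in M1 and -6.57 in M2a, so most of each average came from M2a. F10, coagulation factor X, rose, reading 7.70 to 8.58 in M0 and 9.80 to 10.61 in the 6 cytokine arrays.

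**Figure D3:**
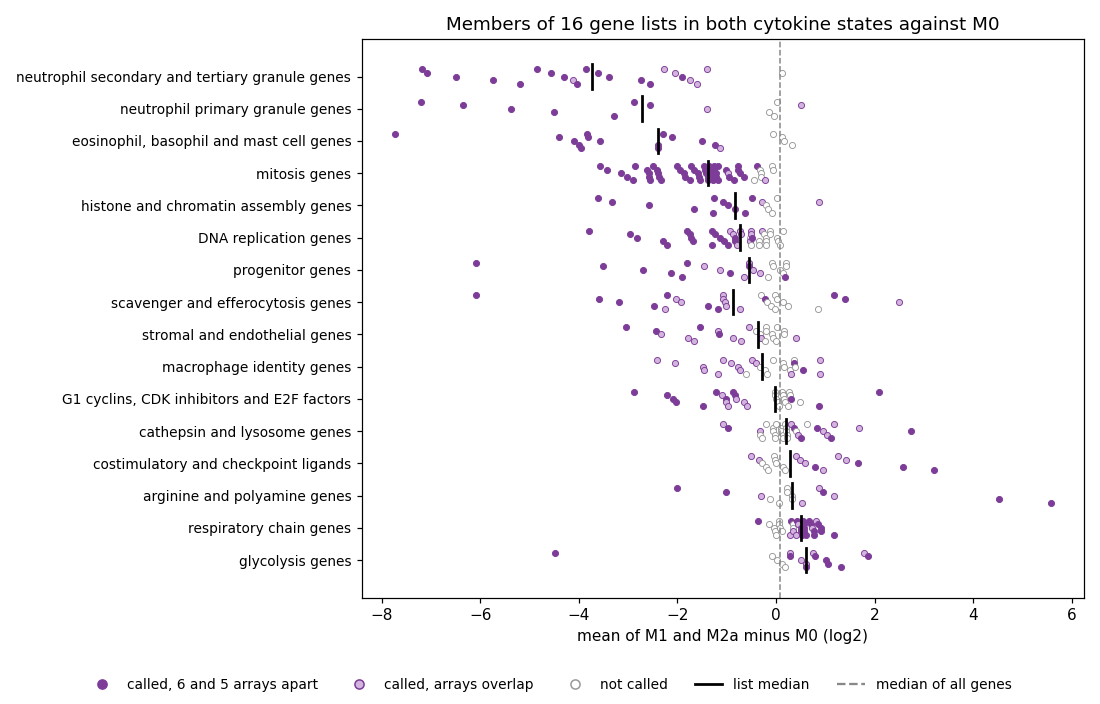
Mean of M1 and M2a minus M0 (log2) for every measured member of 16 gene lists, 1 point per gene; filled points are called genes whose 6 cytokine and 5 M0 arrays do not overlap, light points called genes whose arrays overlap, and open points genes not called. The black bars are list medians, from -3.74 for secondary and tertiary granule genes to 0.60 for glycolysis genes, and the dashed line is the median of all genes at 0.08.

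Cell cycle genes formed the other large shared fall, and the mitosis genes were the most uniform list. Of 57 measured, 51 fell and none rose, and 49 were separated (median -1.38, -1.50 in M1 and -1.38 in M2a), against 16.3% of all genes called lower and 7.78% separated lower. Mitosis genes encode the machinery that separates chromosomes, and their RNA peaks as cells enter division. To show what lies upstream of such genes, the promoters of the 2 mitosis genes and the 2 replication genes with the largest shared falls follow, over the same stretch as above. Capitals mark CCAAT, the cell cycle homology element TTTGAA or the E2F-like TTNNCGC, on either strand.
Birc5: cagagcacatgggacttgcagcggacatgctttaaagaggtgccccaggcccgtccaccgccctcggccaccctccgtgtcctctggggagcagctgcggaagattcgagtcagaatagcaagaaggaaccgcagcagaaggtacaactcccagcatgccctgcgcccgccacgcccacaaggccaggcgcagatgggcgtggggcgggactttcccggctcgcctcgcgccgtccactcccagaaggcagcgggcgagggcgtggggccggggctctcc
Ccnb2: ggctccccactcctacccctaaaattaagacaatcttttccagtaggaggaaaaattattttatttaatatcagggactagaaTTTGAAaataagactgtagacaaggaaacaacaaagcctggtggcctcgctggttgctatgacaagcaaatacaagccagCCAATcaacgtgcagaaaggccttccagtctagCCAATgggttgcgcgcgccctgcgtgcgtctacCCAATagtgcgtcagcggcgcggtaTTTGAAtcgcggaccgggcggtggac
Rrm2: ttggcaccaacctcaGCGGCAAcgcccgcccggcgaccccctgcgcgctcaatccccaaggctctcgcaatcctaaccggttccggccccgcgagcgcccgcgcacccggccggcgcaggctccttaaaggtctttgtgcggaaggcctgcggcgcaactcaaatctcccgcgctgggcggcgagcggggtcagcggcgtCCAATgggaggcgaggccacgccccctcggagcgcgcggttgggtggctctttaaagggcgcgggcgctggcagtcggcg
Uhrf1: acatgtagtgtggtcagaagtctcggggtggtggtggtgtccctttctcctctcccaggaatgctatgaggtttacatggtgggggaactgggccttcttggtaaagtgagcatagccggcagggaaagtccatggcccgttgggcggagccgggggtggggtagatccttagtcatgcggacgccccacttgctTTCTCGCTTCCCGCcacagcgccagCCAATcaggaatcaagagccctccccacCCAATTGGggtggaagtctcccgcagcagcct
They lie at chr11:117848987-117849266 for Birc5, chr9:70421525-70421804 (minus strand) for Ccnb2, chr12:24708004-24708283 for Rrm2 and chr17:56303087-56303366 for Uhrf1. Ccnb2 holds CCAAT at -87, -54 and -21 and TTTGAA at -167 and 5, while the Birc5 stretch holds none of these letters. Among 48 mitosis genes with a window, 34 held CCAAT and 34 held TTTGAA (70.8% each), against 38.2% and 13.3% of all windows. Among 33 replication genes, 27 held TTNNCGC (81.8%), against 28.2% of all, and 6 held TTTGAA (18.2%). CCAAT was in 60.6% of the replication windows and TTNNCGC in 47.9% of the mitosis windows, both also above the share over all. The difference between the lists was not tested.

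Birc5, survivin, a part of the complex that corrects chromosome attachment, read 8.41, 8.98, 8.35, 8.08 and 9.08 in the 5 M0 arrays, 4.77, 4.74 and 4.49 in M1 and 5.74, 5.86 and 5.28 in M2a. All M0 arrays were above 8 and all cytokine arrays under 6, and the fall was 3.43. Ccnb2, cyclin B2, which drives entry into mitosis with Cdk1, read 8.79 ± 0.36 (SD, n = 5) in M0, 5.29 ± 0.17 (SD, n = 3) in M1 and 5.99 ± 0.24 (SD, n = 3) in M2a, a fall of 3.15. Ube2c, which tags mitotic cyclins for destruction, fell by 3.58, Bub1, a spindle checkpoint kinase, fell by 2.86, and Top2a, the topoisomerase that untangles chromosomes, fell by 2.91. Of the 3 probe sets of Top2a 2 were lower. Over 26 alternatives its difference ran from -3.02 to -1.28 and stayed called. Mki67, the antigen used to mark dividing cells, read 10.73, 10.10, 9.85, 10.49 and 9.96 in the 5 M0 arrays, 7.84, 7.75 and 7.71 in M1 and 6.80, 6.76 and 6.34 in M2a, and M2a lay below M1 by 1.14 (adjusted p = 0.00185, limma). For Ube2c the order was the other way, with M1 minus M2a at -1.77. M1 minus M2a was called for 18 of the 57, near the 29.4% of all genes, with M1 lower in 12. The 6 members not called were Plk4 (-0.44), Kif15 (-0.33), Cdc25b (-0.30), Foxm1 (-0.30), Kif2c (-0.09) and Pttg1 (-0.06). Plk4 lay just past the threshold (limma, adjusted p = 0.0505) and its call changed in 12 of 26 alternatives, and that of Cdc25b in 5. Foxm1, the transcription factor that drives many mitosis genes, read 7.67, 6.66, 6.64, 7.29 and 6.68 in the 5 M0 arrays, 6.91, 6.90 and 6.89 in M1 and 6.53, 6.49 and 6.43 in M2a, and its highest values were in M0 arrays 1 and 4.

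DNA replication genes fell less uniformly: 27 of 41 fell, 18 of them separated, and none rose (median -0.74). Rrm2, the inducible subunit of ribonucleotide reductase, read 9.41, 9.25, 8.66, 9.09 and 9.12 in the 5 M0 arrays, 4.08, 4.50 and 4.32 in M1 and 6.31, 6.45 and 6.15 in M2a. It fell by 3.80, and the M1 arrays were lower than the M2a arrays, with M1 minus M2a at -2.004 (adjusted p = 5.07e-06, limma). Of the MCM helicase subunits, Mcm7 fell by 2.95, Mcm5 fell by 2.21, Mcm6 fell by 1.75, Mcm3 fell by 1.25, Mcm2 fell by 0.74 and Mcm4 fell by 0.72. Mcm5 read 8.67 to 9.25 in M0 and 6.73 to 6.95 in the 6 cytokine arrays, with differences of -2.19 in M1 and -2.22 in M2a. Uhrf1, which guides DNA methylation to new strands, fell by 2.82. Pcna, the sliding clamp of replication and repair, was not called at 0.14, nor were Dnmt1 (-0.20) and the clamp loader subunits Rfc3, Rfc4 and Rfc5. Rfc4 spanned 5.12 to 7.69 in M0 and 5.76 to 6.34 in the 6 cytokine arrays, a spread in M0 larger than its difference.

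The regulators of G1 split into rises and falls. Of 31 cyclins, CDK inhibitors and E2F factors, 15 fell, 3 rose and 13 were not called (median -0.02). Cdkn1a, the CDK inhibitor p21, rose, reading 8.23, 9.16, 8.95, 8.45 and 9.11 in the 5 M0 arrays, 11.37, 11.32 and 11.13 in M1 and 10.41, 10.50 and 10.47 in M2a. It differed by 2.09 ± 0.16 (SE) with no overlap of the arrays (limma, adjusted p = 2.22e-06). Mdm2, like Cdkn1a a target of p53, rose by 0.74, though not with the hybridization controls in the fit. Other inhibitors went down: Cdkn1b, p27, fell by 0.83, Cdkn2c, p18, fell by 1.22 and Cdkn2d, p19, fell by 0.88. Of the 2 probe sets of Cdkn1b 1 was lower, and the call was lost when they were averaged. Cdkn2a and Cdkn2b were not called, at 0.03 and 0.01. The E2F factors E2f2, E2f7 and E2f8 fell, with differences of -2.88, -1.48 and -2.02, while E2f1 rose by 0.31, with differences of 0.46 in M1 and 0.16 in M2a; of the 2 probe sets of E2f8 1 was lower. The E2f1 call was lost with averaged probe sets and with the hybridization controls in the fit. The 2 cyclin E genes parted: Ccne2 fell by 2.09, reading 5.15 to 6.53 in M0 and 3.40 to 4.03 in the 6 cytokine arrays, and Ccne1 rose by 0.87, reading 6.36 to 6.59 in M0, 7.96 to 8.12 in M1 and 6.64 to 6.64 in M2a, where the 3 deposited values are identical. The Ccne1 call was lost with M1 and M2a pooled as one group, and neither E2f1 nor Ccne1 was called in M2a alone (limma, adjusted p = 0.145 and 0.180). Ccnd1, cyclin D1, was not called (0.50, adjusted p = 0.0615, limma).

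Most histone and chromatin assembly genes fell, and about as many repair genes fell as did not. Of 17 histone and chromatin assembly genes, 12 fell (11 separated) and 1, Hat1, rose (1.75 in M1 and 0.01 in M2a). Stmn1, stathmin, a microtubule-destabilizing protein, read 10.77 to 11.35 in M0, 6.15 to 6.36 in M1 and 8.58 to 8.81 in M2a and fell by 3.62. Lbr, the lamin B receptor, fell by 3.34, Hmgb2 fell by 2.58 and Ezh2, the methyltransferase of Polycomb, fell by 1.26. Of 25 repair and checkpoint genes, 13 fell (8 separated), 5 rose and 7 were not called, beside 16.3% of all genes lower and 24.0% higher. Among genes above the median gene 4 were called lower. Clspn, claspin, a fork checkpoint adaptor, fell by 2.10 and Rad51ap1 fell by 1.76, while Atm, Atr and Wee1 were not called.

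**Figure D4:**
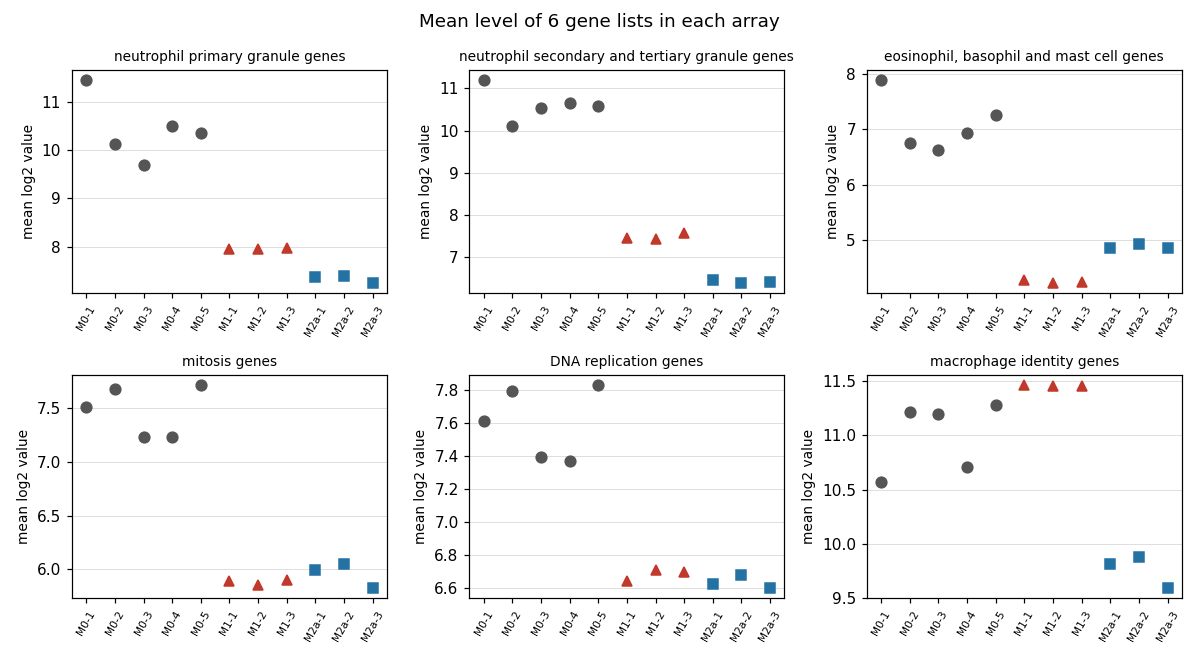
Mean log2 level of 6 gene lists in each of the 11 arrays (circles M0, triangles M1, squares M2a; the y axes differ between panels and do not start at 0). For the granule, eosinophil, mitosis and replication lists every M0 array lies above every cytokine array; the macrophage identity list is highest in M1 (11.45 to 11.46) and lowest in M2a (9.59 to 9.88).

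M0 arrays differed among themselves in the cell cycle lists too, but in another order than in the granule lists. The mitosis list averaged 7.23 to 7.72 in M0, 5.86 to 5.90 in M1 and 5.82 to 6.05 in M2a and the replication list 7.37 to 7.83 in M0, 6.64 to 6.71 in M1 and 6.60 to 6.68 in M2a; M0 arrays 2 and 5 were the highest and 3 and 4 the lowest. Over 26 alternatives the mitosis median ran from -1.93 to -1.27 and the replication median from -1.16 to -0.53.

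The shared rises were fewer and less of one kind. Of the 12 largest, Eif2s3y and Kdm5d lie on the Y chromosome and are described with the sex chromosome genes below. The others were Slc7a2, Arg1, Cd200, Pdcd1lg2, Slamf8, Malt1, Hspa1a, Hspa1b, Serpinb1b and AA467197, each separated and called in limma. Slc7a2, the arginine transporter CAT2, read 4.37, 6.34, 6.27, 5.58 and 5.74 in the 5 M0 arrays, 10.83, 10.80 and 10.92 in M1 and 9.54, 9.67 and 9.39 in M2a, a rise of 4.53 with differences of 5.19 in M1 and 3.88 in M2a. Arg1, arginase 1, read 4.96, 5.60, 5.30, 4.94 and 5.63 in the 5 M0 arrays, 8.71, 8.81 and 8.78 in M1 and 13.08, 13.13 and 12.68 in M2a. It rose in both states, by far more in M2a: the differences were 3.48 in M1 and 7.68 in M2a, and M1 minus M2a was -4.20 (adjusted p = 2.23e-08, limma). Asl, which makes arginine from argininosuccinate, rose by 0.96, though not with the hybridization controls in the fit, and Arg2, the mitochondrial arginase, fell by 2.02. Sat1, which acetylates polyamines for export, fell by 1.02. In all, 6 of 15 arginine and polyamine genes rose and 3 fell, with 3 and 2 separated, beside 24.0% and 16.3% of all genes higher and lower. Nos2, inducible nitric oxide synthase, was called at 1.18 but its differences were 2.24 in M1 and 0.13 in M2a.

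Among 20 costimulatory and checkpoint ligands, 10 rose and 2 fell, beside 24.0% and 16.3% of all genes. Of the rises 4 were separated (list median 0.29). Over 26 alternatives the number called higher ran from 4 to 11. Pdcd1lg2, PD-L2, read 5.09, 4.47, 4.06, 4.40 and 4.68 in the 5 M0 arrays, 7.16, 7.25 and 7.27 in M1 and 6.68, 6.82 and 7.50 in M2a, with differences of 2.69 in M1 and 2.46 in M2a and M1 minus M2a not called at 0.23. Cd274, PD-L1, read 6.76, 7.71, 8.13, 6.71 and 8.35 in the 5 M0 arrays, 12.39, 12.44 and 12.42 in M1 and 8.92, 8.87 and 9.36 in M2a. Its groups do not overlap, and its rise was larger in M1 (4.88 in M1 and 1.52 in M2a). Cd40, the receptor for T cell help, was separated as well, but its M2a difference was small (2.99 in M1 and 0.32 in M2a). The Cd40 call was lost with M1 and M2a pooled as one group. Cd200, the ligand of an inhibitory receptor of myeloid cells, read 4.61 to 6.47 in M0 and 9.16 to 9.55 in the 6 cytokine arrays, and the receptor gene Cd200r1 was called at 1.26. The T cell activators Cd80 and Cd86 were not called on average, at -0.03 and -0.20; the Cd86 differences were 1.005 in M1 and -1.41 in M2a.

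JAK-STAT genes moved in both directions, with 11 of 26 rising and 6 falling, beside 24.0% and 16.3% of all genes. With M1 and M2a pooled as one group 5 were called higher. Socs1, a feedback inhibitor of JAK kinases, read 4.69, 4.84, 4.80, 4.15 and 5.40 in the 5 M0 arrays, 10.14, 10.11 and 10.06 in M1 and 5.84, 5.75 and 5.91 in M2a, rising in both states (5.33 in M1 and 1.06 in M2a). Ptpn2, a phosphatase that switches STATs off, rose by 0.68, though not with the hybridization controls in the fit, and Jak3 rose by 0.65. Ifngr1, the ligand-binding chain of the interferon-gamma receptor, fell by nearly the same amount in both states (-0.70 in M1 and -0.73 in M2a). Stat4 fell likewise (-1.89 in M1 and -1.85 in M2a), and Stat6, which carries the IL-4 signal, was not called at 0.04. Socs3 and Socs2 were called on average with opposite signs in the states: 5.10 in M1 and -1.20 in M2a for Socs3 and -3.57 in M1 and 0.46 in M2a for Socs2.

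The stress gene Hspa1b, an inducible heat shock protein, read 4.67, 6.58, 5.96, 4.74 and 6.74 in the 5 M0 arrays, 9.49, 9.70 and 9.86 in M1 and 9.32, 9.49 and 8.73 in M2a, with M0 arrays 1 and 4 the lowest. It rose by 3.69, and its near-identical copy Hspa1a by 3.16; probes may not tell the 2 copies apart. Malt1, a protease of NF-kB signalling, read 6.33, 6.67, 6.63, 6.07 and 7.02 in the 5 M0 arrays, 10.54, 10.66 and 10.77 in M1 and 9.36, 9.32 and 9.41 in M2a, a rise of 3.46. Slamf8, a surface receptor of the SLAM family, rose by 4.51, more in M1 (5.78 in M1 and 3.24 in M2a). Serpinb1b, a protease inhibitor, rose by 2.63 while its relatives Serpinb1a and Serpinb2 fell (-2.55 and -5.99).

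Many energy metabolism genes rose. Of 35 respiratory chain genes, 24 rose (18 separated) and 1, Ndufa4, fell, with a median of 0.50; 24.0% of all genes were called higher. Sdhc, a subunit of succinate dehydrogenase, read 7.78, 8.61, 8.47, 7.85 and 8.72 in the 5 M0 arrays, 9.25, 9.42 and 9.38 in M1 and 9.53, 9.59 and 9.57 in M2a, a rise of 1.17, and Cyc1, cytochrome c1, and Sdhb rose by 0.92 each. The values were lowest in M0 arrays 1 and 4, which were the lowest M0 arrays for 15 and 17 of the 35 members, and the list median was 0.50 as measured and -0.08 with the hybridization controls in the fit. In that fit 1 respiratory chain gene and 5 glycolysis genes were called higher, and the calls of Sdhc, Cyc1, Sdhb and Slc16a1 were lost. Of 17 glycolysis genes, 12 rose (7 separated), with list medians of 0.92 in M1 and 0.26 in M2a; M1 minus M2a was called for 13, with M1 the higher in 10. Slc2a1, the glucose transporter GLUT1, read 7.61 to 8.73 in M0 and 9.92 to 10.49 in the 6 cytokine arrays and rose by 1.86, and Slc16a1, a lactate transporter, by 1.33. Pfkfb3, an activator of glycolysis, was called at 1.78 but its differences were 3.23 in M1 and 0.33 in M2a. Slc2a3, GLUT3, was the 1 member with a fall and fell by 4.48; without probe sets whose suffix marks probes shared between transcripts it was -0.07, with an adjusted p of 0.592 in limma, while the mean of its 4 probe sets gave -2.44, which was called.

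Lysosome genes changed one by one. Of 33, 11 rose and 3 fell, and 5 of the rises were separated, beside 24.0% of all genes higher, 16.3% lower and 9.45% separated higher. None was called higher with the hybridization controls in the fit. Acp5, tartrate-resistant acid phosphatase, read 6.69, 8.90, 8.70, 7.61 and 8.59 in the 5 M0 arrays, 11.30, 11.29 and 11.16 in M1 and 10.54, 10.61 and 10.13 in M2a. It rose by 2.74, and its M0 values ranged over more than 2, lowest in array 1; the call was lost with the hybridization controls in the fit. Gla, alpha-galactosidase, rose by 1.12 and Ctsz, cathepsin Z, by 0.83, and both turned below 0 with that covariate. Man2b1, a lysosomal mannosidase, fell by 0.97, more in M1 (-1.60 in M1 and -0.34 in M2a). Ctsk was called at 1.69 from M2a (-0.48 in M1 and 3.87 in M2a). The lysosome list averaged 10.04 to 10.87 in M0, 10.71 to 10.74 in M1 and 11.04 to 11.05 in M2a; M0 array 1 was the lowest M0 array for 28 of its 33 members, and the list median, 0.19, fell below 0 in 4 of 26 alternatives.

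Some macrophage markers were read in the sorted cells. Lyz2, lysozyme, read 13.95 to 14.17 in M0 and 13.24 to 14.08 in the 6 cytokine arrays, Tyrobp, an adaptor of myeloid receptors, 13.18 to 13.42 in M0 and 13.06 to 13.19 in the 6 cytokine arrays, and Csf1r, the M-CSF receptor, 12.91 to 13.40 in M0 and 11.69 to 13.48 in the 6 cytokine arrays. These levels were high in every array. Csf1r was still called lower on average (-0.48), with differences of 0.25 in M1 and -1.21 in M2a. That call was lost with M1 and M2a pooled as one group. Lyz2, Tyrobp and Csf1r are only a part of the identity list, and levels in bulk samples do not tell which cells made the RNA. Adgre1, which encodes the F4/80 used for the sort, read 10.80, 11.39, 11.38, 10.78 and 11.59 in the 5 M0 arrays, 12.39, 12.37 and 12.49 in M1 and 11.85, 11.85 and 11.51 in M2a; it was called higher by 0.89, though not with the hybridization controls in the fit, and M2a array 3 overlapped M0 array 5. Of 26 identity genes, 5 rose and 11 fell, beside 24.0% and 16.3% of all genes, but none of the falls was separated. The number called lower ran from 0 with M1 and M2a pooled as one group to 18 with the hybridization controls in the fit. Apoe (-0.09 in M1 and -4.74 in M2a), C1qb (0.56 in M1 and -3.50 in M2a) and Aif1 (1.77 in M1 and -4.74 in M2a) fell in M2a alone or moved in opposite directions. Spi1, which encodes PU.1, rose in both (0.69 in M1 and 0.42 in M2a). Granulocyte genes were present beside these markers in every M0 array, S100a9 at 13.89 or higher and Mpo at 10.23 or higher, in cells labelled F4/80+.

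Scavenger and efferocytosis genes fell in part in both states. Of 28, 16 fell (8 separated) and 3 rose, beside 16.3% of all genes lower and 24.0% higher. Gas6, a ligand that bridges dying cells to TAM receptors, read 8.80, 10.42, 10.48, 9.62 and 10.18 in the 5 M0 arrays, 5.80, 6.10 and 5.89 in M1 and 6.87, 6.82 and 6.43 in M2a, a fall of 3.58, with M0 array 1 the lowest of the M0 arrays. Vsig4, a complement receptor of resident macrophages, fell by 2.48, Cd163, the haemoglobin scavenger receptor, fell by 1.38, and Fcna, ficolin A, fell by 2.21. Msr1 and Cd36, scavenger receptors for modified lipoprotein, rose by 1.39 and 1.19, but both were below 0 with the hybridization controls in the fit. Mrc1, the mannose receptor, was called at -2.04 with differences of -4.85 in M1 and 0.77 in M2a. Hpgd differed by -6.09 with the probe set of highest mean and by -1.41 with its other one.

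Signals of other cells were partly shared. Of 24 stromal and endothelial genes, 12 fell and 4 were separated, beside 16.3% and 7.78% of all genes. Bgn, biglycan, fell by 2.43, and Col1a2 (-0.63 in M1 and -2.92 in M2a) and Sparc (-0.90 in M1 and -3.78 in M2a) mainly in M2a. Acta2 fell by 3.04 with 1 probe set and was -0.09 with another. Of 17 lymphocyte and NK cell genes, 4 fell and 2 rose, beside 16.3% and 24.0% of all genes, and the list median, 0.03, changed sign in 6 of 26 alternatives. The early B lineage factor Ebf1 read 4.90 to 6.46 in M0 and 2.34 to 3.53 in the 6 cytokine arrays and fell by 2.75, and the B cell receptor chain Cd79b read 6.79 to 8.15 in M0 and 4.54 to 5.27 in the 6 cytokine arrays and fell by 2.66. The partner chain gene Cd79a was not called (0.04), nor were Cd3d, Cd3g and Cd8a; Cd3e was called higher by 0.37 at 5.85 or lower in every array, a call lost with the hybridization controls in the fit. Rag1, deleted in all groups, read 3.32 to 3.76 in M0, 4.67 to 4.99 in M1 and 3.27 to 3.90 in M2a, and its probe set may lie in or outside the deleted stretch, so it checks no label.

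Averages that came mostly from 1 state are part of this comparison by its construction. The largest among called genes whose arrays overlap were Gbp2 (7.57 in M1 and 0.78 in M2a), Lcn2, Cfb (7.93 in M1 and 0.16 in M2a) and Ly6i (7.55 in M1 and -0.15 in M2a). Gbp2 was also called in M2a (limma, adjusted p = 0.0402). Cxcl9, a chemokine induced by interferon-gamma, was even separated, at 9.48 in M1 and 0.27 in M2a, because its small M2a difference left no overlap, and so was Saa3 (8.06 in M1 and 0.54 in M2a). With M1 and M2a pooled as one group all 6 lost their calls. Of 18 M1 marker genes, 16 were called higher on average and 2 were separated; with M1 and M2a pooled as one group none was called higher. Of the 1720 separated rises, 457 (26.6%) also differed between M1 and M2a, and of the 1416 separated falls, 483 (34.1%). Both shares lie near the 29.4% of all genes called for M1 minus M2a.

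**Figure D5:**
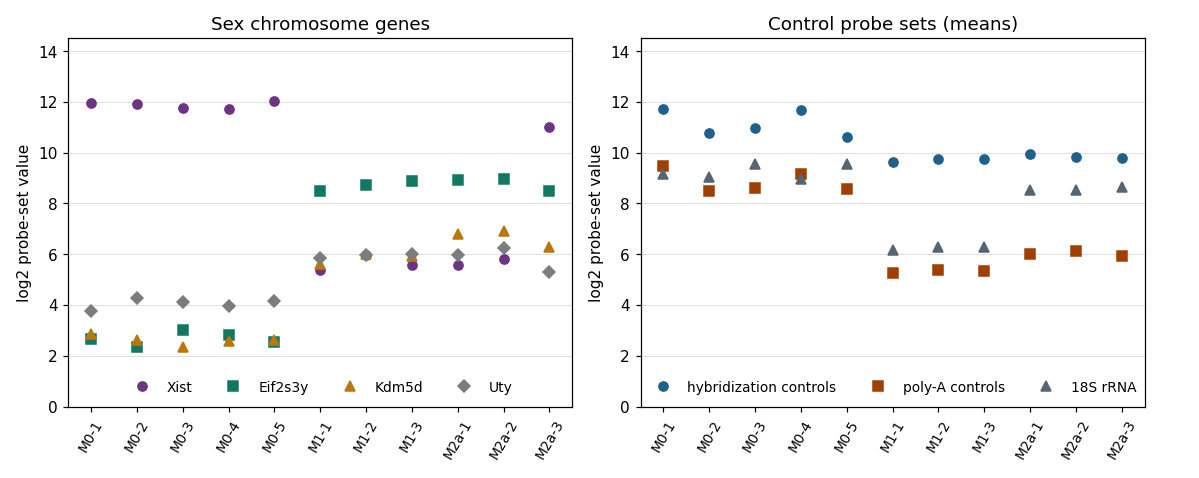
Log2 values in each array of Xist, Eif2s3y, Kdm5d and Uty (left) and the means of the hybridization, poly-A and 18S rRNA control probe sets (right). Xist is at 11.74 or higher in all M0 arrays, at 11.002 in M2a array 3, and at 5.98 or lower in the other 5. Each Y-linked gene shown is higher in all 6 cytokine arrays than in any M0 array.

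Sex chromosome genes separated M0 from the cytokine arrays. Xist, the RNA that coats the inactive X chromosome of female cells, read 11.96, 11.90, 11.77, 11.74 and 12.01 in the 5 M0 arrays, 5.37, 5.98 and 5.57 in M1 and 5.58, 5.81 and 11.002 in M2a. Eif2s3y, on the Y chromosome, read 2.65, 2.36, 3.02, 2.80 and 2.56 in the 5 M0 arrays, 8.48, 8.71 and 8.87 in M1 and 8.94, 8.96 and 8.48 in M2a. All M0 arrays were thus high for Xist and low for the Y-linked gene, and all cytokine arrays were high for the Y-linked gene. M2a array 3 was high for both. Kdm5d read 2.34 to 2.85 in M0 and 5.61 to 6.90 in the 6 cytokine arrays and Uty 3.76 to 4.28 in M0 and 5.30 to 6.23 in the 6 cytokine arrays, both on the Y chromosome. Kdm6a and Ddx3x, X-linked genes with Y-linked relatives, fell (-0.84 and -0.59), while Eif2s3x, Kdm5c and Usp9x were not called. Of 617 genes of the X chromosome, 48 were separated higher and 53 lower (8.59%), against 7.78% of all genes lower. M0 cells and cytokine-treated cells therefore differed in sex chromosome signal, a trait of the mice they came from, as well as in treatment. In the other results the parts of the treatment and of this difference cannot be told apart, and they were not tested.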

How the data were processed

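Total RNA of F4/80+ sorted cells was measured on 11 Affymetrix mouse genome arrays. Each array holds deposited log2 values for 45101 probe sets, made by the authors with Partek, per the submitters' processing notes, which give no version. How background, probe summary and normalization were handled is not given in the sources used here. Deposited values ran from 0.73 to 14.49, with array medians of 5.14 to 5.34, and no array or column was left out. The number of arrays limits the precision.

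The probe annotation gave 34945 probe sets 1 gene symbol, and 932 with several symbols were not used. Entrez identifiers gave 34741 of them a current symbol. Each of 18193 genes was represented by its brightest probe set on average, chosen over all 11 arrays, without a filter on low values; 64 control probe sets were kept apart. Groups came from the sample labels.

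Group means were fitted to all 11 arrays in R 4.3.3 with limma 3.58.1 (lmFit, then eBayes, 8 residual degrees of freedom), and contrasted as the mean of M1 and M2a minus M0, each state minus M0, and M1 minus M2a. Adjustment was by Benjamini-Hochberg over 18193 genes and genes were called under 0.05. Differences carry the standard errors of this fit. The script was tested on simulated data.

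The members, the 28 gene lists (625 of 693 symbols measured) and the rules were chosen with earlier results of these data known. The rule for named genes took the 12 largest rises and falls by the smaller state difference among separated genes, up to 4 rises and 4 falls per list, the 4 largest averages among called genes that were not separated, cell cycle members not called, and a fixed set, passing over clone-like symbols. Other list members were named after their values were seen. Promoters and their coordinates are from RefSeq (GRCm38.p6); 14452 of the genes had a window, and the first listed one was used. The alternatives were other normalizations, probe-set rules and a filter, other eBayes settings, array weights, fewer M0 arrays, both states as 1 group, control-probe covariates, the replicate number as a block and each array left out.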

Additional observations from a re-analysis of the deposited data

How the results depend on the processing

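Of 146 named genes, 93 kept their direction and their call in every alternative they were part of: 72 of the 116 run in all 26, and 21 of the 30 run in 25, since a filter on level or probe-set suffix left these out once. For 21 others the call or direction changed with the hybridization covariate and in no other alternative; these controls do not overlap between M0 and the cytokine arrays. With M0 arrays 4 and 5 as the only M0 arrays, 2299 genes rose and 1909 fell, and with M1 and M2a pooled as one group 2502 rose and 1904 fell. Among genes above the median gene, a smaller set, 1781 fell, 545 of them at least 2-fold, and 880 were separated lower. With M0 arrays 2, 3 and 5 only, 437 genes were at least 2-fold higher and 2915 separated higher. With M0 arrays 1 to 3 only, 2688 were separated higher; fewer M0 arrays make separation easier. Without M0 arrays 1 and 4 and M2a array 3, chosen after the data were seen, 444 were at least 2-fold higher, 3045 separated higher and 2145 separated lower. With actin 5'-3' signal as a covariate 471 were at least 2-fold higher. With the hybridization controls as a covariate 1808 were at least 2-fold lower, 633 separated higher and 904 separated lower. Leaving out any 1 array moved none of these counts by over 1.5 times. With a replicate block, 4562 genes rose and 3083 fell; deviations of same-numbered arrays correlated at -0.04 to 0.25, so the numbers are not shown to pair the samples.

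Signs turned for these averages, and the cause was not tested. With the hybridization controls as a covariate they were 0.0314 for Ms4a1, 0.83 for Foxm1, 0.48 for Kif15, -0.47 for Ccnd1, -0.18 for Ctss, -0.0356 for Hyou1, -0.0237 for Socs7, -0.0185 for Ctsz, -0.0368 for Adgre1, -0.0838 for Msr1, -0.0943 for Asl, -0.75 for Cd36 and -0.60 for Gla. Rps20 was 0.17 when a gene's probe sets were averaged and 0.74 without _x_at and _s_at probe sets. Foxm1 was 0.0287 with M0 arrays 2, 3 and 5 only and 0.0418 without M0 arrays 1 and 4 and M2a array 3. Where a value lies near the lowest values of an array, background limits what can be measured, and a difference may be understated.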

Other observations

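Ribosomal protein genes differed mainly between the 2 cytokine states. Of 26 cytosolic ribosomal protein genes, 19 fell and 3 rose on average, but only 3 of the falls were separated, and M1 minus M2a was called for 24, with M1 lower in all 24. The 18S rRNA control read 9.25 in M0, 6.25 in M1 and 8.56 in M2a, and the actin 5'-3' difference was -0.61, 0.15 and -0.57; their part in this was not tested. With M1 and M2a pooled as one group 3 ribosomal genes were called lower. The list medians were -0.76 in M1 and 0.08 in M2a, beside a median of all genes of 0.06 in M1 and 0.07 in M2a. Rps15 read 12.47 to 12.59 in M0, 11.51 to 11.56 in M1 and 12.29 to 12.35 in M2a, and Rps16, whose chosen probe set lay at 3.60 or lower in every array, was called higher by 0.58. Of 24 endoplasmic reticulum chaperone and unfolded protein genes, 8 rose and 2 fell, beside 24.0% and 16.3% of all genes, and 22 differed between M1 and M2a. Eif2ak3, the stress sensor PERK, fell in both states (-0.77 in M1 and -0.84 in M2a), and its call was lost with averaged probe sets and with M0 arrays 4 and 5 only.

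Of 20 integrin genes, 6 rose and 9 fell, beside 24.0% and 16.3% of all genes. Itgb2, the beta chain shared by leukocyte integrins, read 11.87 to 12.09 in M0 and 12.80 to 12.99 in the 6 cytokine arrays and rose by 0.89, and Itga5, the fibronectin receptor chain, rose by 1.43. The alpha chains that pair with Itgb2 differed between the states: Itgam was -1.49 in M1 and -0.05 in M2a, Itgal 0.45 in M1 and -3.26 in M2a and Itgax -1.29 in M1 and 4.86 in M2a. Of 15 dendritic cell genes, 4 rose and 2 fell, near the shares over all genes, and Cd83 fell by nearly the same amount in both states (-1.79 in M1 and -1.77 in M2a), with 6.88 to 8.78 in M0 and 5.98 to 6.41 in the 6 cytokine arrays. Of 24 M2a marker genes, 8 rose and 7 fell, beside 24.0% and 16.3% of all genes, and Arg1 and Pdcd1lg2 were the 2 that were separated higher.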
